A study of Mus musculus with 18 samples.

Results

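Cells carry a set of proteins that recognise double-stranded RNA, and 8 genes of this set were followed through the mRNA-seq of the P19 Dicer lines. They are the sensors Tlr3, Ddx58 (RIG-I), Ifih1 (MDA5) and Dhx58 (LGP2), the adaptor Mavs, the kinase Eif2ak2 (PKR), the RNA editor Adar and the ubiquitin-like modifier Isg15. The members were chosen by symbol, and all 8 were present among the 55450 genes of the TPM table. P19 is a mouse embryonic carcinoma line from a teratocarcinoma, and poly(A) RNA was sequenced from 6 samples in each of 3 lines, WT with genotype Dicer (+/+), HetKO with genotype Dicer (+/-) and HM with genotype Dicer (HM/-). HetKO cells had a frameshift that truncates Dicer on a single allele, made with CRISPR, and HM cells were made from HetKO cells by changing a hotspot glutamate of the RNase IIIb domain to glycine in the remaining allele. HM cells thus share the truncated allele with HetKO, the labels name no drug or interferon treatment, and each genotype is a single line, so a difference between genotypes cannot be told apart from a difference between lines. The labels do not say that the 6 samples of a line are separate cultures, so the p-values below measure the spread between these samples. The HetKO samples are titled differently and numbered apart from those of WT and HM. The labels do not say whether they were prepared or sequenced separately.

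Double-stranded RNA in the cytosol is bound by the helicases RIG-I and MDA5, which signal through MAVS on mitochondria to switch on type I interferon genes, while TLR3 senses it in endosomes. PKR, once bound to such RNA, phosphorylates the translation factor eIF2alpha and slows protein synthesis, and ADAR converts adenosine to inosine in paired RNA, which keeps the cell's own transcripts from being sensed. Interferon in turn raises many of these genes through promoter elements such as the interferon-stimulated response element (ISRE), and embryonic stem and carcinoma cells are known for a weak interferon response. Dicer itself is a double-stranded RNA ribonuclease, and its RNase IIIb domain cuts the 5p arm of miRNA precursors.

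To show the sequences behind this pathway, the RefSeq promoter windows of GRCm38.p6 were searched on both strands for the ISRE core GAAANNGAAA. Each window runs from 250 bases before to 50 bases after a transcription start. Of the 7 members with a window, 4 held the core (Ddx58, Ifih1, Eif2ak2 and Isg15), against 3.99% of 27025 genes and 3.44% of 32851 windows, and Dhx58 had no window in the table. A match is a description of the letters and not a bound site. In Ddx58, Ifih1 and Eif2ak2 the core lay just past the start, and up to 10 bases on each side are shown with the core in capitals.
Ddx58, chr4:40239804-40239833, minus strand, core on the opposite strand: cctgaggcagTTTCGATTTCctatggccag
Ifih1, chr2:62646206-62646233, minus strand: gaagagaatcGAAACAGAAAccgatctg
Eif2ak2, chr17:78882535-78882564, minus strand: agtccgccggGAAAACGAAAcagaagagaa
Isg15 held 3 overlapping cores 57 to 78 bases before its start, shown as a single run of capitals within the 250 bases upstream.
Isg15, chr4:156200819-156201068, minus strand: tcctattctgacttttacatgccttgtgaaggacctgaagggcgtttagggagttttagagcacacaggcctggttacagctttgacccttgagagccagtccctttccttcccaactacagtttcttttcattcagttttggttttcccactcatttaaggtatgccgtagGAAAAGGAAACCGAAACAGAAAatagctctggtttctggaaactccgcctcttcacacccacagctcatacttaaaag
The other element searched was the interferon-gamma activated site (GAS), TTCNNNGAA, which is a palindrome in its fixed letters and is found in 9.55% of genes. It was present in the windows of 2 members, Eif2ak2 and the most downstream of the 3 Adar windows. The Eif2ak2 match lay 178 bases before the start and is in capitals here.
Eif2ak2, chr17:78882573-78882822, minus strand: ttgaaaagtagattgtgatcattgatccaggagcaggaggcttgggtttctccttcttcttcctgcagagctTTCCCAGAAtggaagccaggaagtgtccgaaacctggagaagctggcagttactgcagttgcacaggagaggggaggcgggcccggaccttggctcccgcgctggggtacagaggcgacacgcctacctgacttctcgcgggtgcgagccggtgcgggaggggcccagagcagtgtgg

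The members covered a wide range of levels, which can be compared between genes because TPM is scaled per transcript length. In WT, Adar was the highest at 21.6 TPM ± 0.798 (SD, n = 6), followed by Mavs at 13.2 ± 1.41, Eif2ak2 at 9.06 ± 0.916 and Dhx58 at 3.58 ± 0.764. Ddx58 at 1.60 ± 0.724 and Tlr3 at 1.48 ± 0.634 came next, and Ifih1 at 0.412 ± 0.415 and Isg15 at 0.118 ± 0.137 were the lowest. The WT samples of neighbours in this order did not overlap from Adar down to Ddx58, and they overlapped from Ddx58 down to Isg15. In HM the order changed in the middle, with Dhx58 (3.25 ± 0.932) and Eif2ak2 (3.08 ± 1.21) overlapping each other and Ddx58.

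Ifih1 and Isg15 both had a mean below 1 TPM in every line, as had 73.4% of all genes in the table. Isg15 was also below 1 TPM in each of the 18 samples, and it was listed at 0 in 7 of them. Ifih1 passed 1 TPM only in HM replicate 2. Adar, Mavs, Eif2ak2 and Dhx58 averaged 1 TPM or more in every line, while Ddx58 dropped below it in HetKO and Tlr3 in HM.

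**Figure D1:**
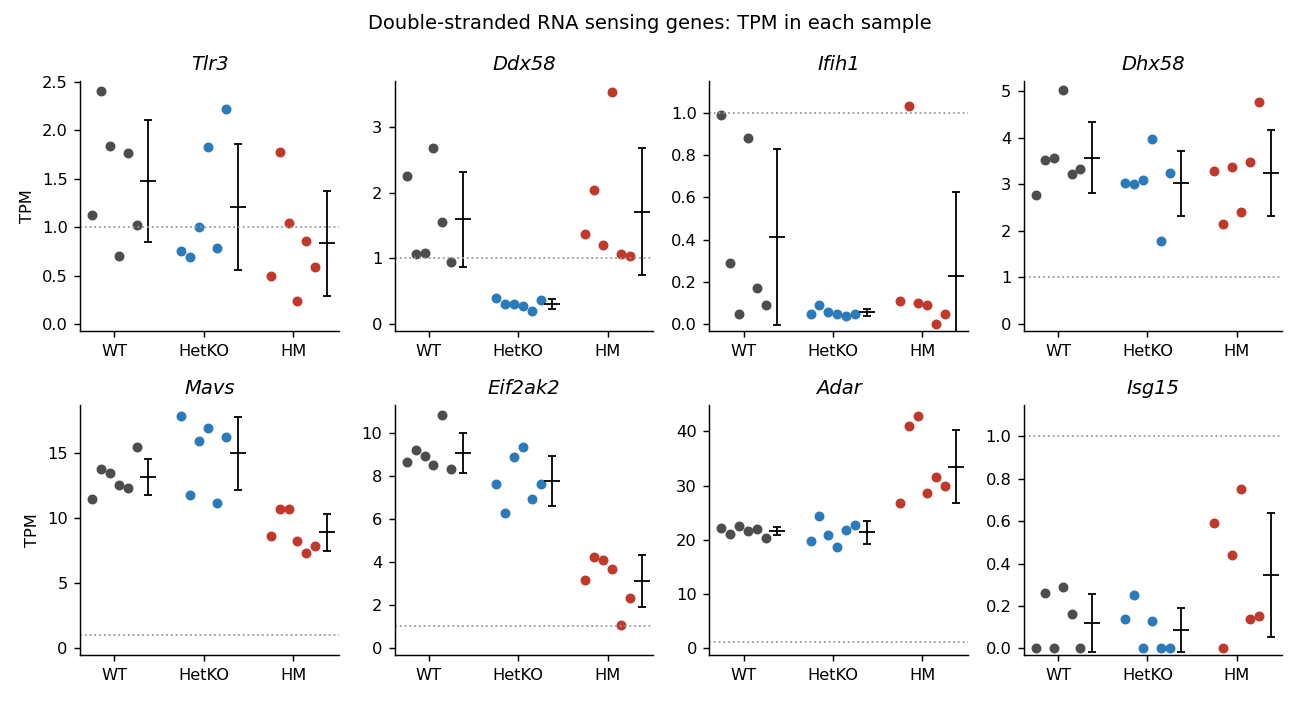
TPM (vertical axis, linear, a separate scale per gene) of the 8 members in each of the 6 WT, 6 HetKO and 6 HM samples (points in order of replicate number), with the mean and SD of each line as a bar and whiskers and 1 TPM as a dotted line. Eif2ak2 and Mavs lie lower in HM, Adar lies higher in HM, Ddx58 lies between 0.19 and 0.4 TPM in HetKO, and Isg15 stays below the dotted line throughout.

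Several facts of the libraries touch these values. Dicer1 ranged from 49.2 to 54.8 TPM in WT, from 42.9 to 53.8 in HetKO and from 35.4 to 44.2 in HM. All 10 markers of pluripotent embryonic carcinoma averaged 1 TPM or more over the 18 samples, with Pou5f1 at a mean of 2088 TPM in WT and 2040 in HM. Others were less even, with means in WT and HM of 46.9 and 18.8 TPM for Nanog and 24.5 and 8.85 for Sall4. Sox2 was at 98.6 and 157 TPM and Utf1 at 220 and 381. By the limma test described below, 3 of the 10 were higher and 2 lower in HM than in WT, beside 19.4% and 32% of all genes. In HetKO 2 were higher and 2 lower than in WT, beside 3.71% and 6.44% of all genes. Dppa5a, called lower there, entered that test only through WT, with means of 15.5 TPM in WT and 0.965 in HetKO. In HetKO and HM the samples were alike in pairs, replicates 1 and 4, 2 and 5, and 3 and 6 in HetKO, and 1 and 4, 2 and 3, and 5 and 6 in HM. Over 683 abundant genes, the robust SD of log2 differences within pairs was 0.0595 to 0.105 in HM and 0.051 to 0.0696 in HetKO, and between other samples 0.168 to 0.279 and 0.164 to 0.358. WT did not separate in this way, as replicates 2, 3, 5 and 6 were alike and replicates 1 and 4 stood apart from them, so that the pairs used for WT, numbered as in HetKO, lay at 0.0493 to 0.0746 and other samples at 0.073 to 0.205. HM replicates 2 and 3 stand apart on chromosome 3, and HetKO replicates 2 and 5 stand apart over many genes. Calls that were lost with pair means in place of the samples, or that changed without these libraries, are named below.

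Each pair of lines was then compared with limma, using log2(TPM + 1) of all genes that averaged 1 TPM or more across the 12 samples involved. A gene was called at a Benjamini-Hochberg adjusted p under 0.05. A change of a gene near 1 TPM looks smaller on this scale than it is, so ratios of mean TPM are given beside it. Between HM and WT, 3 of the 6 members tested were called, 1 higher and 2 lower. Of all 14043 genes tested, 19.4% were called higher and 32% lower, close to the members' own share. The lines were made to ask what the RNase IIIb mutation does to the cell, and HM against WT spans both edits.

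Eif2ak2 (ENSMUSG00000024079.4, chr17:78852564-78882573, minus strand), the kinase PKR, had the largest difference of the members tested between HM and WT, both on the log2 scale and by ratio of means. Its lowest, median and highest TPM was 8.32, 8.78 and 10.8 in WT, 6.26, 7.62 and 9.36 in HetKO, and 1.06, 3.41 and 4.22 in HM. Every HM sample lay below every WT and HetKO sample, while WT and HetKO overlapped. Separation of this kind was common. Of all genes tested, 28.5% had HM samples clear of those of WT. The share was 15.5% when HM was set against HetKO. The mean of Eif2ak2 was 2.94-fold lower in HM than in WT, a log2 difference of -1.36 (standard error 0.199, adjusted p = 0.000146 from limma). HM replicate 5 was the lowest at 1.06 TPM, and without any single sample the difference stayed between -1.45 and -1.18. The 44 other expressed genes within 5 Mb stayed near their WT level in HM, with sample medians from -0.069 to 0.045 on the log2 scale. Close to the gene this differed, since Gm6548, 0.608 kb from its end, fell by 1.13 (adjusted p = 0.000186 from limma) and Cebpzos, on the other side, fell by 0.70 (adjusted p = 0.00425 from limma). The lincRNA Gm26637, which overlaps the start of Eif2ak2 on the other strand, had a mean of 0.257 TPM. Whether the counting used strand is not given in the sources used here.

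Mavs (ENSMUSG00000037523.13, chr2:131234063-131248025, plus strand), the adaptor of RIG-I and MDA5, was lower in HM as well. Its lowest, median and highest TPM was 11.5, 13 and 15.5 in WT, 11.2, 16.1 and 17.9 in HetKO, and 7.3, 8.46 and 10.7 in HM. The HM samples lay below all samples of the other lines. The mean was 1.48-fold lower in HM than in WT (log2 difference -0.53, standard error 0.104, adjusted p = 0.00111 from limma). Its 84 neighbours within 5 Mb had HM sample medians of -0.146 to -0.042, and after subtracting the neighbours' median in each sample the difference was -0.44 (two-sided exact permutation p = 0.0022, the smallest that 6 against 6 samples allow). The permutation tests here and below take the 6 samples of a line as separate, although samples were alike in pairs. None was run with pair means. The next gene on the chromosome, Pank2, a pantothenate kinase, fell by 0.50 (adjusted p = 0.0014 from limma), and Ap5s1 on the other side was at -0.06 (adjusted p = 0.597 from limma).

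Adar (ENSMUSG00000027951.16, chr3:89715022-89753446, plus strand) went the other way. Its lowest, median and highest TPM was 20.4, 21.8 and 22.6 in WT, 18.6, 21.3 and 24.4 in HetKO, and 26.9, 30.7 and 42.9 in HM. WT and HetKO overlapped, and all 6 HM samples were above both. The mean was 1.55-fold higher in HM than in WT (log2 difference 0.59, standard error 0.108, adjusted p = 0.000709 from limma). The HM samples split, with 41 and 42.9 TPM in replicates 2 and 3 and 26.9 to 31.6 TPM in the other 4. In the same 2 libraries the median of the 123 expressed genes within 5 Mb was at 0.56 and 0.54 above WT on the log2 scale, and in the other 4 HM libraries it was at -0.245 to -0.184. Adar thus lay above its neighbours in every HM library, by itself at 0.89 and 0.96 in replicates 2 and 3 and at 0.30 to 0.53 in the others. After subtracting the neighbours' median the difference between HM and WT was 0.54 (two-sided exact permutation p = 0.0022, the smallest possible here). The gene Chrnb2 overlaps Adar on the other strand and had a mean of 0.575 TPM.

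**Figure D2:**
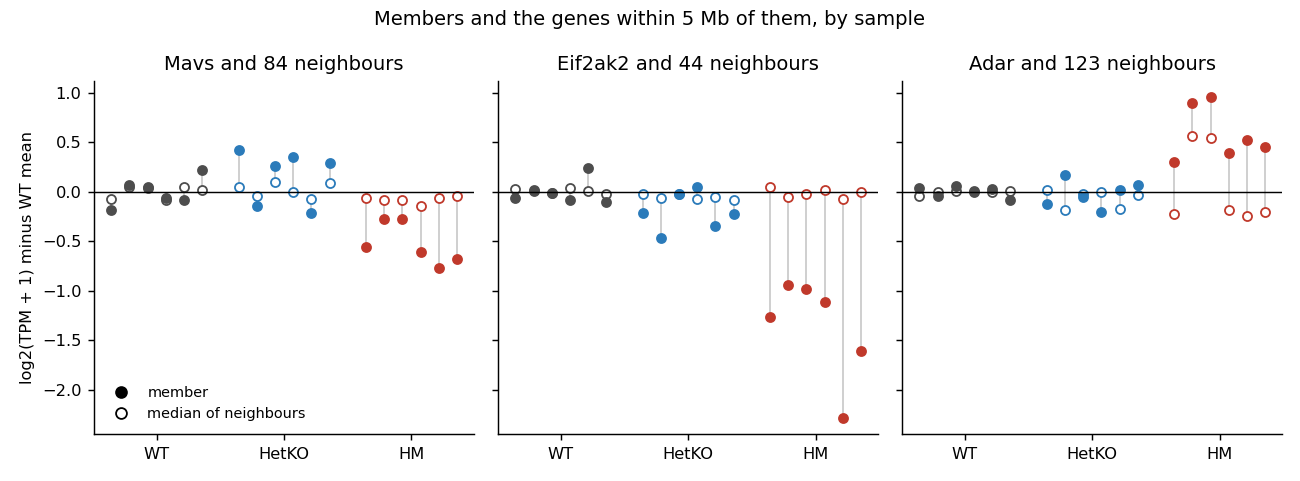
Deviation of log2(TPM + 1) from the WT mean (vertical axis) in each sample, for Mavs, Eif2ak2 and Adar (filled points) and for the median of the expressed genes within 5 Mb of each (open points), with samples in order of replicate number within each line. The open points of Adar reach 0.56 and 0.54 in HM replicates 2 and 3 and lie below 0 in the other 4 HM samples, whereas those of Eif2ak2 stay near 0.

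The remaining sensors gave no call between HM and WT. Tlr3 (ENSMUSG00000031639.12, chr8:45395665-45411080, minus strand), the endosomal receptor, had a lowest, median and highest TPM of 0.7, 1.45 and 2.4 in WT, 0.69, 0.89 and 2.22 in HetKO, and 0.24, 0.725 and 1.78 in HM. The lines overlapped, and HM differed from WT by -0.44 ± 0.22 (SE) on the log2 scale, with an adjusted p of 0.111 from limma. Without HM replicate 2, the HM sample with the most Tlr3, the difference was -0.57. Tlr3 averaged 0.833 TPM in HM and passed the limit of 1 TPM only through WT, so a call gained by leaving samples out is no test. Dhx58 (ENSMUSG00000017830.15, chr11:100694884-100704271, minus strand), which encodes LGP2, a helicase related to RIG-I without its signalling domain, was the most even of the sensors, with medians of 3.43 TPM in WT, 3.06 in HetKO and 3.33 in HM. The log2 difference of HM from WT was -0.12 ± 0.156 (SE), with an adjusted p of 0.539 from limma, and the lines overlapped.

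Ddx58 (ENSMUSG00000040296.15, chr4:40203773-40239828, minus strand), the RIG-I gene, set HetKO apart from the other lines. Its lowest, median and highest TPM was 0.94, 1.32 and 2.69 in WT, 0.19, 0.3 and 0.4 in HetKO, and 1.04, 1.29 and 3.54 in HM. No HetKO sample overlapped a WT or HM sample. Of all genes tested, 8.21% had HetKO samples clear of those of WT. For Ddx58, WT and HM overlapped almost fully, with a log2 difference of 0.04 (standard error 0.23, adjusted p = 0.888 from limma). Between HetKO and WT the gene fell under the limit of 1 TPM and was not tested, with a 5.24-fold lower mean in HetKO and a log2 difference of -0.95. With a limit of 0.1 TPM, which its HetKO mean passed too, it was called (adjusted p = 0.00261 from limma). It was not tested with pair means. The 68 neighbours within 5 Mb had a HetKO median of -0.062, and the difference was -0.85 after subtracting their median (two-sided exact permutation p = 0.0022, the smallest possible here).

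Ifih1 (ENSMUSG00000026896.14, chr2:62595798-62646255, minus strand), the MDA5 gene, was scarcely present. Its TPM was 0.05 to 0.99 in WT, 0.04 to 0.09 in HetKO and 0 to 1.03 in HM, and only WT replicates 1 and 4, at 0.99 and 0.88, and HM replicate 2, at 1.03, exceeded 0.29. The WT replicates 1 and 4 also had the most Ddx58 in WT, at 2.26 and 2.69 TPM. Isg15 (ENSMUSG00000035692.6, chr4:156199424-156200818, minus strand), among the genes most raised by interferon and the member with the most ISRE cores, ranged from 0 to 0.29 TPM in WT, from 0 to 0.25 in HetKO and from 0 to 0.75 in HM. Neither was tested, and the lines overlapped for both.

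Between HetKO and WT, 0 of the 5 members tested were called by limma, and 0 had an unadjusted p under 0.05. Of all 13999 genes tested, 3.71% were called higher and 6.44% lower. The log2 differences were -0.17 for Tlr3, -0.19 for Dhx58, 0.16 for Mavs, -0.20 for Eif2ak2 and -0.02 for Adar. When HetKO replicates 2 and 5 were left out, Mavs reached 0.33 (adjusted p = 0.0328 from limma), since these 2 samples had the lowest Mavs in HetKO at 11.8 and 11.2 TPM.

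HM against HetKO, which differ in the hotspot mutation, gave 4 calls among the 6 members tested, 2 higher and 2 lower, where 14% of 13762 genes were called higher and 20.6% lower. Eif2ak2 was at -1.16 (adjusted p = 0.00148), Mavs at -0.68 (adjusted p = 0.00266) and Adar at 0.61 (adjusted p = 0.00249), all from limma. The other call was Ddx58, which passed the limit of 1 TPM only through its HM samples and so had to differ, and which is therefore given by its means alone, 0.305 TPM in HetKO and 1.71 in HM. These comparisons share samples, HM with the first and HetKO with the second, and so are not separate evidence. With pair means as replicates none of the 4 calls remained, with adjusted p from 0.0752 to 0.12 in limma, whereas Eif2ak2, Mavs and Adar kept their calls between HM and WT, with a largest adjusted p of 0.0169, 0.0473 and 0.0381 over all alternatives. Over all genes, pair means gave calls for 3.03% between HM and HetKO and for 23.6% between HM and WT.

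**Figure D3:**
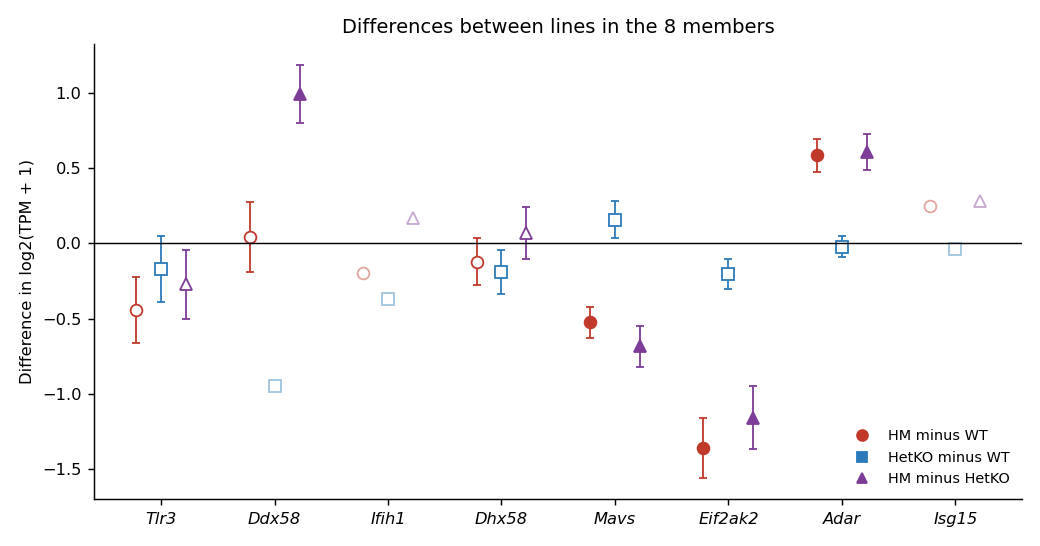
Difference in log2(TPM + 1) between lines (vertical axis) for the 8 members, with the standard error from limma as whiskers. Filled symbols passed an adjusted p of 0.05, open symbols did not, and pale symbols without whiskers were below the limit of 1 TPM and not tested. Eif2ak2 and Mavs lie below 0 and Adar above 0 in both comparisons with HM, and Ddx58 lies near -0.95 for HetKO minus WT.

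Other genes of the pathway were taken from 9 lists of textbook roles, 164 genes in the table. Between HM and WT, 51 of the 96 tested passed, 22 higher and 29 lower, and the median of the lists was -0.01, beside -0.09 for all genes. With each sample centred on its median over all genes, the split was 35 higher and 17 lower, and with quantile normalization 29 and 20. The centring moved the median of all genes from -0.09 to 0.08. With pair means 26 of the 96 passed, beside 23.6% of all genes. Of the genes named below for HM against WT, Rnaseh2a and Oas3 then lost their calls (adjusted p = 0.0515 and 0.0826 from limma). The counts of each list below stand beside 19.4% of all genes higher and 32% lower. With centring 52.6% of all genes were called. Of all genes called, 37.7% were higher, against 61% with centring and 51.1% with quantile normalization.

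Interferon genes themselves were scarcely detected. Of 21 in the table, 20 were at 0 TPM in all 18 samples. Ifng, the type II interferon, reached 0.07 TPM in an HM sample, and Ifna1, a type I interferon, was at 0 throughout. Of 47 interferon-stimulated genes, which serve as readouts of interferon, 18 averaged 1 TPM or more over the HM and WT samples, beside 14043 of all 55450 genes.

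In the receptor and JAK-STAT list, 9 of 17 genes tested fell in HM and 1 rose, and with centring 5 fell and 1 rose. Stat2, a subunit of the factor that binds ISRE elements, had medians of 18.5 TPM in WT and 10.1 in HM (log2 difference -1.03, adjusted p = 0.000747 from limma), and Pias1, an inhibitor of STAT signalling, was at -0.54 (adjusted p = 0.000168 from limma). HetKO spread from 5.49 to 18.8 TPM for Stat2 and overlapped both. Its 76 neighbours within 5 Mb had a median of -0.21 between HM and WT.

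Herc6, the mouse ligase that attaches ISG15 to proteins, was at -0.93 (adjusted p = 5.64e-06 from limma), with medians of 8.91 TPM in WT and 4 in HM. It was the 1 gene called among the 3 tested for ISG15 conjugation.

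The interferon-stimulated genes split in HM, with 6 of 18 higher and 5 lower, or 7 and 3 with centring. Irgm1, an immunity-related GTPase, was 2.87-fold higher in HM than in WT (medians of 8.28 and 3.05 TPM, adjusted p = 0.000319 from limma), and H2-K1, a class I histocompatibility chain, was 1.87-fold higher (medians of 205 and 113 TPM, adjusted p = 0.00232 from limma). Parp10, a mono-ADP-ribosyltransferase, was at -0.98 and Igtp, a relative of Irgm1, at -0.78 (adjusted p = 0.000835 and 0.000772 from limma), although Igtp passed the limit of 1 TPM only through WT. H2-K1 and the OAS genes have close relatives whose reads the counting could split, so their levels are uncertain.

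In the list of eIF2alpha kinases, subunits and phosphatases, 9 of 15 genes rose in HM and 2 fell, and with centring 12 rose and 0 fell. Eif2ak1, the haem-regulated kinase that phosphorylates the same site as PKR, rose from a median of 12.4 TPM in WT to 21.6 in HM (log2 difference 0.78, adjusted p = 3.2e-05 from limma). The exchange factor subunit Eif2b1 was at 0.63 (adjusted p = 0.000125 from limma). The HM samples of Eif2ak1 (20.1 to 25.1 TPM) lay above all WT samples (10.7 to 14.6 TPM), the reverse of Eif2ak2.

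Of the other double-stranded RNA-binding proteins 3 of 12 rose and 2 fell, and with centring 5 rose and 1 fell. Dhx9, a helicase that unwinds RNA duplexes, was at 0.66 and Zfr, a zinc-finger RNA-binding protein, at 0.25 (adjusted p = 0.0005 and 0.000525 from limma). Prkra, the PKR activator PACT that also binds Dicer, was 1.81-fold lower in HM, with medians of 39.6 TPM in WT and 19.5 in HM (log2 difference -0.83, adjusted p = 9.44e-05 from limma). It lies on chromosome 2 among 43 genes with a median of -0.29 between HM and WT.

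Among sensor cofactors and adaptors, 2 of 21 rose and 5 fell. With centring 9 rose and 4 fell, and the balance of all genes turned as well. Traf3, the ubiquitin ligase below MAVS, was 2.07-fold higher in HM, with a WT range of 5.7 to 7.1 TPM and an HM range of 11.1 to 15.3 (adjusted p = 8.45e-06 from limma). Unc93b1, which carries TLR3 to endosomes, was 2.13-fold lower (adjusted p = 0.00072), and Azi2, an adaptor of the kinase TBK1, was 1.43-fold lower (adjusted p = 0.000122), both from limma. In the DNA-sensing list 2 of 5 genes fell, or 1 with centring, among them Rnaseh2a, a ribonuclease H2 subunit, at -0.34 (adjusted p = 0.0012 from limma).

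**Figure D4:**
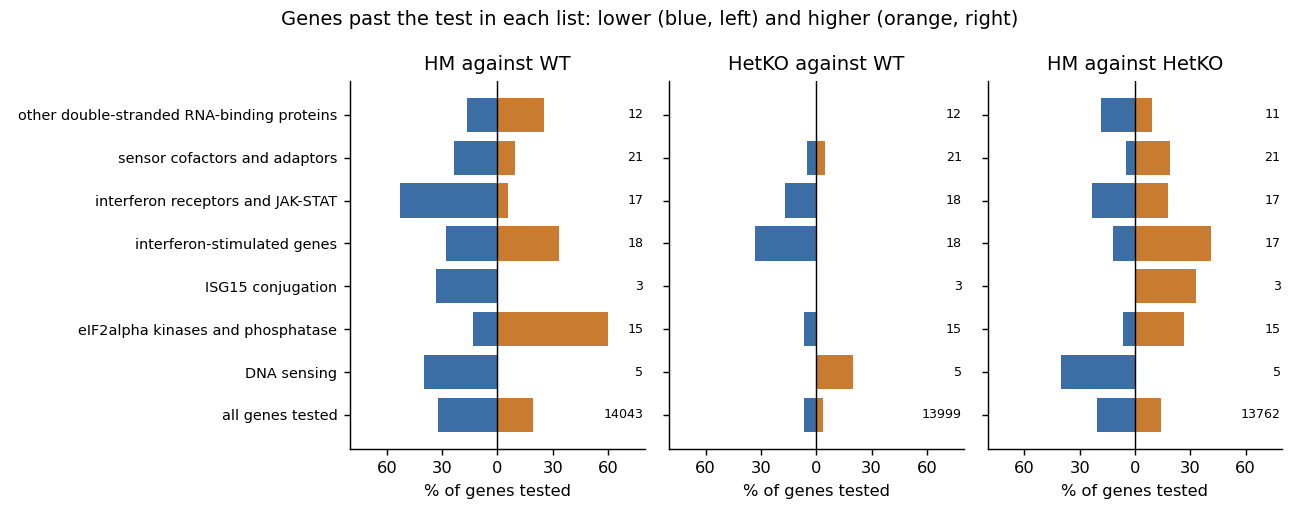
Share of the genes tested (horizontal axis, %) that passed an adjusted p of 0.05, lower to the left and higher to the right, for 7 of the lists and for all genes, with the number tested at the right edge of each panel. Genes of the eIF2alpha list lie mostly to the right between HM and WT, and interferon-stimulated genes lie to the left between HetKO and WT.

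Between HetKO and WT, 15 of 96 pathway genes passed, 2 higher and 13 lower, and with the means of alike samples as replicates 0 of 96 did by limma. Only 0.243% of all genes were called in that setting. Of the 13, Irgm1, Oas1a, Oas3 and Socs1 averaged under 1 TPM in HetKO and passed the limit only through WT. In the fit over samples 34 of the 96 had an unadjusted p under 0.05, which cannot be judged without the share over all genes, not given here. Without HetKO replicates 2 and 5 the count was 14, 2 higher and 12 lower. In the interferon-stimulated list 6 of 18 fell and 0 rose, beside 6.44% of all genes lower and 3.71% higher. With pair means none of these 6 kept its call. The genes of this paragraph and the next that are not in the rule for named genes were chosen after their values were seen.

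Irf1, a transcription factor that interferon induces, had a lowest, median and highest TPM of 16.3, 19.3 and 20.5 in WT, 6.44, 9.65 and 10.7 in HetKO, and 14.7, 22 and 26.1 in HM. HetKO overlapped neither line, with a 2.09-fold lower mean than WT (adjusted p = 0.000244 from limma, and 0.106 with pair means) and with HM 1.12 above it (adjusted p = 0.000223 from limma, and 0.0443 with pair means). Oas1a, an enzyme that makes oligoadenylates when bound to double-stranded RNA, had medians of 1.78 TPM in WT, 0.245 in HetKO and 3.57 in HM. Its mean was 6.45-fold lower in HetKO than in WT. The mean of its relative Oas3 was 10.3-fold lower in HetKO (medians of 2.57 and 0.345 TPM). Both passed the limit of 1 TPM in this comparison only through WT, so these are values with no test. Oas3 was also lower in HM than in WT (median 1.18 TPM, adjusted p = 0.00638 from limma).

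Irgm1 and H2-K1, the largest rises of their list in HM, were at -0.87 and -0.50 in HetKO against WT. H2-K1 was called (adjusted p = 0.00518 from limma, and 0.254 with pair means), and Irgm1, with a HetKO mean of 0.992 TPM, passed the limit of 1 TPM only through WT. Irgm1 ranged from 0.82 to 1.1 TPM in HetKO and from 5.06 to 11.1 in HM. Of 16 pathway genes tested whose promoter window held the ISRE core, 6 were called lower and 0 higher in HetKO, with a median of -0.49, and of 64 without the core 6 were called lower and 2 higher, with a median of 0.01. Among those 6 with the core, Irgm1, Oas1a, Oas3 and Socs1 passed the limit of 1 TPM only through WT, so their calls are no test. The median of -0.49 includes them. It also includes Oas1c and Igtp, which were not called, at HetKO means of 0.767 and 0.97 TPM. Both passed the limit only through WT too, so this median is partly built in. Between HM and WT the 16 genes with the core gave 2 higher and 7 lower, with a median of -0.33, and 65 without it gave 17 higher and 17 lower, with a median of 0.00. Here Igtp and Irf2, both called lower with the core, passed the limit only through WT. Between HM and HetKO the 13 genes with the core gave 3 higher and 1 lower, with a median of 0.18, and 63 without it gave 15 higher and 9 lower, with a median of 0.08. The 3 higher, Irgm1, Oas1a and Socs1, passed the limit only through HM and so had to differ, and this balance is therefore no test.

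**Figure D5:**
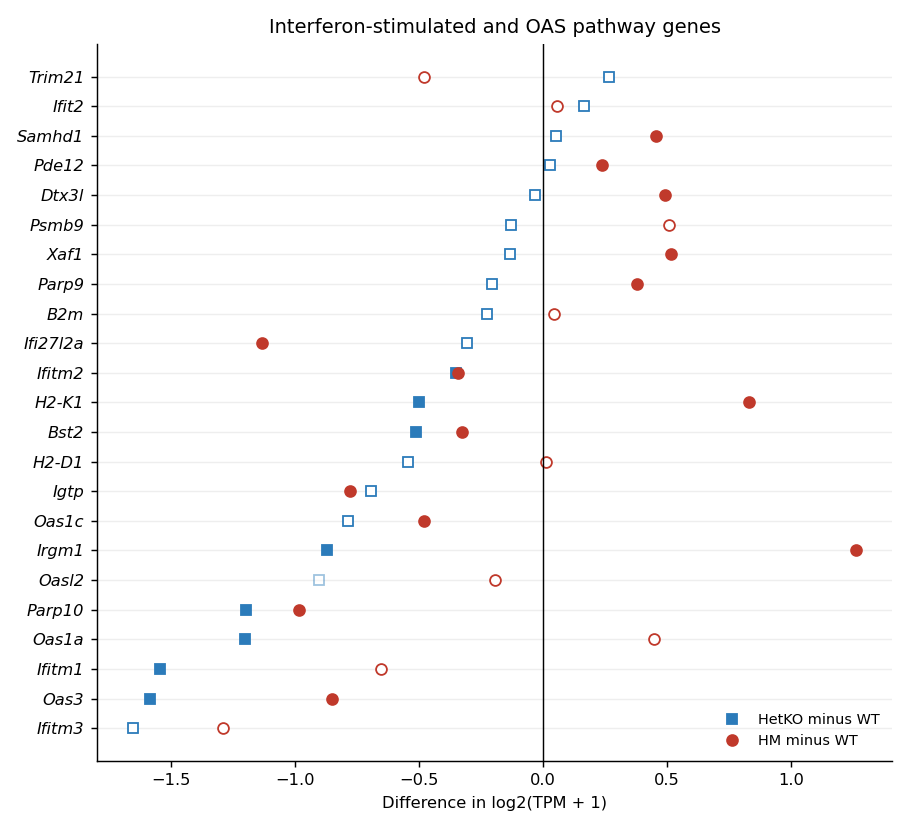
Difference in log2(TPM + 1) from WT (horizontal axis) for 23 interferon-stimulated and OAS pathway genes that were tested in either comparison, HetKO as squares and HM as circles, both against the same WT samples. Filled symbols passed an adjusted p of 0.05, and the pale symbol was not tested. HetKO lies below 0 for 19 of the 23 genes and HM for 11 of the 23, where the medians of all genes tested were -0.03 and -0.09. Oas1a, Oas1c, Oas3, Oasl2, Irgm1 and Igtp averaged under 1 TPM in HetKO and entered through WT or HM. Their low place in HetKO is thus partly built in, and the same holds for Igtp in HM.

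Beside these genes, the summed level of 10 immune cell markers was 5.2 to 8.02 TPM in WT, 2.12 to 4.48 in HetKO and 8.21 to 10.5 in HM, and Lyz2 and Cd68 were the only ones that averaged 1 TPM or more. Lyz2, a lysozyme of myeloid cells, had means of 3.59 TPM in WT, 1.44 in HetKO and 7.34 in HM, whereas Cd68 had 2.72, 1.83 and 1.93. The defining markers Ptprc and Tyrobp were at or near 0, with means of 0.0167 and 0 in WT and 0.0433 and 0 in HM. The sum over 10 fibroblast and endothelial markers was 34.1 to 42.2 TPM in WT, 11.1 to 42.8 in HetKO and 23.3 to 34.7 in HM. In bulk RNA, fewer cells of a type and less RNA per cell cannot be told apart. The part of these markers in the differences above was not tested.

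As the lines differ in miRNA processing, the longest annotated 3′ UTR of each member was searched for 7-base matches to the seeds (bases 2 to 8, in capitals) of 13 miRNAs, some of those that the study names and partner arms of these, using the RefSeq mature sequences. The miRNAs with a match in a member called between HM and WT are shown.
miR-30a-5p: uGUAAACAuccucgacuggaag
miR-17-5p: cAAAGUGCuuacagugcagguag
miR-7a-5p: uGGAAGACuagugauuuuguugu
miR-17-3p: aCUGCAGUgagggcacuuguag
miR-30a-3p: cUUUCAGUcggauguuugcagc
The matches lie in the 3′ UTRs at these GRCm38 positions of the 7 bases, shown in capitals with 10 bases on each side.
Adar, miR-30a-5p match at chr3:89751694-89751700, plus strand: attggtgaaaTGTTTACaagggcagga
Eif2ak2, miR-17-5p match at chr17:78852763-78852769, minus strand: gcttctcaaaGCACTTTggacctttgc
Eif2ak2, miR-30a-3p match at chr17:78852705-78852711, minus strand: ctgaggtgggACTGAAAgcattttgca
Mavs, miR-7a-5p match at chr2:131245480-131245486, plus strand: taaaaaccatGTCTTCCaagttgcccc
Mavs, miR-17-3p match at chr2:131240422-131240428, plus strand: tcatccgggcACTGCAGatctgtgagc
Mavs, miR-17-3p match at chr2:131241905-131241911, plus strand: ccctagagccACTGCAGttaccagact
The same bases serve for miR-20b-5p, which shares the seed of miR-17-5p, and for miR-20b-3p, which shares that of miR-17-3p. Adar held a match to a 5p miRNA only, and Mavs and Eif2ak2 held matches to both arms. Among the members without a call between HM and WT, Tlr3 held matches to 5p arms only, Dhx58 and Ddx58 to 3p arms only and Ifih1, which was not tested, to both. Whether the matches bear on the levels was not tested. Such matches are common, as 17.1% of 12062 expressed genes with a 3′ UTR held that of miR-30a-5p, 18.7% that of miR-17-3p, 18% that of miR-30a-3p, 15.1% that of miR-17-5p and 15.2% that of miR-7a-5p. Isg15, with a 3′ UTR of 160 bases, held none.

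Genes whose pattern over the 18 samples was most like that of each member were ranked by Pearson's r of log2(TPM + 1) among 13954 genes, a description in which all points share the libraries and line differences. For Ddx58 these were Oas1a (r = 0.930), Cwc27 (0.918) and 4833420G17Rik (0.913), and the first is itself a double-stranded RNA sensor. For Adar they were En1 (0.956), Pmf1 (0.953) and Lef1 (0.950), of which Pmf1 lies within 5 Mb of Adar. Eif2ak2 was followed by Atraid (0.968), Sgsm2 (0.966) and Tecr (0.964), and Mavs by Lpin1 (0.977), Pias3 (0.971) and Atg4c (0.970). The nearest patterns were less alike for Tlr3, with Zfp758 (0.828), Jph1 (0.824) and AC122442.1 (0.821), and for Dhx58, with Mecom (0.802) and Rhbdf1 (0.753).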

How the data were processed

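Poly(A)-selected, stranded mRNA libraries of 18 samples were sequenced in paired-end mode. TPM values, rounded to 2 decimals, were deposited by the authors for 55450 genes, after joining of mates in BBMerge and estimation of abundance in RSEM. The submitters' processing notes also name cutadapt, STAR and mm10, and the versions and the annotation are not given in the sources used here. Every sample sums to the same total in TPM, so depth is unknown and precision was taken from the spread between samples, with no interval or detection floor. All 55450 gene identifiers matched GENCODE M21 of GRCm38, which gave positions and 3′ UTRs. Promoters and mature miRNAs came from RefSeq tables of GRCm38.p6.

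Each comparison used its own 12 samples, with groups taken from the sample labels. The test was limma 3.58.1 (R 4.3.3), run on log2(TPM + 1) of genes averaging 1 TPM or more, with a variance trend and Benjamini-Hochberg adjustment over all genes at 0.05. The limma step was tested on simulated data of known fold changes. Neighbours are expressed genes within 5 Mb. For a single value the exact permutation test, two-sided, ran through 924 splits of the single samples and was not run with pair means. Python 3.11.15, numpy 2.4.6, pandas 2.3.3 and matplotlib 3.10.9 were used. Members and lists were chosen with earlier results of these data known. Named genes are the 8 members, up to 2 rises and 2 falls per list between HM and WT among genes called without overlap, the 2 highest genes of a list that stays below 1 TPM, the 3 genes most like each member and the nearest neighbours. The 13 miRNAs searched are some of those named in the study and partner arms of these. The small RNA libraries of the study were not analysed here. A few genes that the rule selects are not reported here. Alternatives were a pseudocount of 0.1, other filters, centring, quantile normalization, a single fit of all 3 lines, an unequal-variance test per gene, the replicate number as a block, pair means and libraries left out. Leaving out each sample in turn and splitting neighbours by side were chosen after seeing the data.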

Additional observations from a re-analysis of the deposited data

Results flagged for a closer look

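Of 24 groups of 6 samples (8 members in 3 lines), 3 held a sample far from the other 5, where chance gives about 1.2 (1 in 20). Ifih1 was at 1.03 TPM in HM replicate 2, with the other HM samples at 0 to 0.11. Dhx58 was at 5.02 TPM in WT replicate 4, with the other WT samples at 2.77 to 3.57. Eif2ak2 was at 10.82 TPM in WT replicate 5, with the others at 8.32 to 9.18.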

How the results depend on the processing

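Between HM and WT, Eif2ak2 (-1.65 to -1.15), Mavs (-0.65 to -0.33) and Adar (0.42 to 0.77) kept their direction and call in 10 of 10 alternatives and without each of the 12 samples in turn. The count of members called between HetKO and WT was 1 in place of 0 with no filter on low TPM, with a filter of 0.1 TPM and when 1 fit held all 3 lines, in each case Ddx58. It was 2 without HetKO replicates 2 and 5 (Ddx58 and Mavs), and 0 to 1 when samples were left out in turn, with 1 without any single HetKO sample, because Ddx58 then passed the limit of 1 TPM. Pair means as replicates gave 0 members between HM and HetKO in place of 4. The pathway genes called with pair means were 26 for HM against WT in place of 51, 0 for HetKO against WT in place of 15, and 6 for HM against HetKO in place of 33. Over all genes the shares were 23.6%, 0.243% and 3.03%, in place of 51.4%, 10.2% and 34.6%. Pair means leave fewer values per line and also merge alike samples, and which of these lowered the counts was not tested.

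Samples with the same replicate number did not deviate together, with mean correlations of 0.0051, 0.062 and 0.021 in the 3 comparisons. Own numbers were the best match for 1, 3 and 1 of 6 samples, so the numbers were not taken as pairs. With the replicate number as a block, 4 members were called between HM and WT (Tlr3 was added), 0 for HetKO against WT and 4 for HM against HetKO, and 50, 20 and 30 pathway genes. Tlr3 was also called between HM and WT without HM replicates 2 and 3 (-0.66). It passed the limit of 1 TPM only through WT, so these added calls of Tlr3 are no test. Scaling moved the split of pathway calls between HetKO and WT from 2 higher and 13 lower to 5 and 13 when centred and 5 and 12 when quantile normalized, and that between HM and HetKO from 20 and 13 to 30 and 11 when centred. The share of higher calls over all genes moved too, from 36.5% to 50.7% and 48.1% between HetKO and WT in the same order. Between HM and HetKO it went from 40.4% to 60.9% when centred. Depth is unknown for TPM, so values near 0, such as those of Isg15 and Ifih1, cannot be told apart from absence.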

Other observations

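The neighbours of Isg15 near the end of chromosome 4 did not behave alike in WT. The median of 68 expressed genes within 5 Mb was at -0.378 and -0.349 on the log2 scale in WT replicates 1 and 4 and at 0.159 to 0.218 in the other 4 WT samples, and from 0.048 to 0.23 in HetKO. WT replicates 1 and 4 are also the WT samples with the most Ddx58 and Ifih1. On chromosome 3, the genes within 5 Mb past Adar were at a median of up to 0.70 in an HM sample, and those before it at up to 0.49.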
